A study of Mus musculus with 4 samples.

Results

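The 31 genes described here encode hydrolases, membrane proteins and regulators of the lysosome, and were measured by RNA sequencing in 4T1 cells given recombinant IL-17A. They were taken by symbol from a fixed list whose starting point was Gpnmb, a gene that was lower in the IL-17A libraries. The other 30 were added to ask whether further lysosomal genes follow it. All 31 were found among the 21840 rows of the deposited table, and all 31 were among the 12515 genes abundant enough to be tested (10 normalized counts or more in both libraries of PBS or of rIL17, and a mean of 1 CPM or more, where CPM scales counts to the library total). 4T1 is an established mouse mammary carcinoma line, labelled epithelial and wild type. One group received phosphate-buffered saline (PBS) and the other recombinant IL-17A (rIL17), an inflammatory cytokine, with 2 libraries each. All 4 libraries came from the same line in the same culture medium with fetal bovine serum, penicillin and streptomycin. The sources used here give neither dose nor duration. They also do not say whether libraries of 1 group are separate cultures, so that the spread behind each p-value may be purely technical.

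The lysosome is the acidic compartment in which cells break down proteins, sugars and lipids taken up from outside or delivered by autophagy. Its soluble hydrolases are made in the endoplasmic reticulum, most are tagged with mannose 6-phosphate in the Golgi apparatus, and they work at the low pH set by a proton pump, the V-ATPase. Its limiting membrane carries heavily glycosylated proteins, such as LAMP1 and LAMP2, and transporters and channels. Transcription factors of the MiT/TFE family, with TFEB as the best known, bind a sequence with the core CACGTG near many of these genes and can raise their transcription together. Gpnmb encodes a transmembrane glycoprotein of lysosomes, melanosomes and the cell surface that is also abundant in some macrophages and tumors and is a known target of the MiT/TFE factor MITF.

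Promoter sequences are shown for 4 of the genes: Gpnmb and Neu1, which had the lowest rIL17 values relative to PBS, and Lamp1 and Mcoln1, membrane protein genes among the 5 that held the core motif more than once (the others were Ctsa, Ctsd and Gla). Each is the stretch of 250 bases before the RefSeq start site on mm10, all on the plus strand, at chr6:49036268-49036517 (Gpnmb), chr17:34931003-34931252 (Neu1), chr8:13158911-13159160 (Lamp1) and chr8:3500269-3500518 (Mcoln1). Capitals mark CACGTG, which reads the same on both strands.
Gpnmb: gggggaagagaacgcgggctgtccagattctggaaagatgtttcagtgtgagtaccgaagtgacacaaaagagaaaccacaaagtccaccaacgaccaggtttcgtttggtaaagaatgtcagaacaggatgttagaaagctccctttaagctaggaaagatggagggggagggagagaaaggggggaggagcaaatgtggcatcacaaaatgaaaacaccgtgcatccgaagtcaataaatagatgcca
Neu1: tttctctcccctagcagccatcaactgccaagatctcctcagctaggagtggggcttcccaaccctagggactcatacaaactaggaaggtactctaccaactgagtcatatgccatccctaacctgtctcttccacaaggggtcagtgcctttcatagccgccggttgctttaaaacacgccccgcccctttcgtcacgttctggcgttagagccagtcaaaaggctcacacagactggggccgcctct
Lamp1: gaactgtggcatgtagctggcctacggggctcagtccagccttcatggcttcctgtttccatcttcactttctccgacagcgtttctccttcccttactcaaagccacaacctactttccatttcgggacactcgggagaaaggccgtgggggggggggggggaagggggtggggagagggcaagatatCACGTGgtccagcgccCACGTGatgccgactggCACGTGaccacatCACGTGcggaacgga
Mcoln1: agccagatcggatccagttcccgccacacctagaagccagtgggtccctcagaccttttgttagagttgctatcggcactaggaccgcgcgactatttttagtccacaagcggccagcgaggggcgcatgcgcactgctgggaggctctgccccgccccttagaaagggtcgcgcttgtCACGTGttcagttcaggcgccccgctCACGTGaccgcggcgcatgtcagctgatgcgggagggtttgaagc
The Lamp1 stretch held 4 copies, beginning 61, 45, 28 and 15 bases before the start site, and the Mcoln1 stretch held 2, beginning 71 and 45 bases before it. Those of Gpnmb and Neu1 held 0. Lamp1 and Mcoln1 were picked for holding the motif, so the contrast among the 4 stretches is not a result. The RefSeq start site used for Gpnmb lies 28 bases before its nearest transcript start in GENCODE M21.

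The libraries held 17511450 to 17970104 reads assigned to genes. Epithelial keratin genes were abundant (Krt8 at 25498 to 32665 normalized counts and Krt18 at 15966 to 20159), with lower levels of Epcam (76.6 to 135) and Cdh1 (139 to 208). The 6 epithelial markers summed to 53688 and 57922 in PBS and to 45711 and 47763 in rIL17, 0 of them passed (beside 0.807% of all genes tested) and 4 had an unadjusted p below 0.05, all lower in rIL17 (beside 5.19% of all genes tested); whether this bears on the lysosomal values was not tested. Macrophages and melanocytes also express Gpnmb, and their defining markers were at or near 0: Ptprc was at 0 with PBS (both libraries) and reached 3.02 and 2.01 with rIL17, Csf1r lay between 1.01 and 3.98, and Pmel, Mlana and Sox10 lay between 0 and 12.1. A count of 0 allows up to 3 reads. The macrophage list had 6 of its 12 genes in the table, with sums of 825 to 946, nearly all of it Cd14 (810.4 to 916). The fibroblast list had 5 of 7 genes in the table, with sums of 2444 and 2554 in PBS against 2971 and 2967 in rIL17, nearly all of it Pdgfra (2328 and 2462 against 2855 and 2862). Of its 4 tested genes 0 passed (beside 0.807% of all genes tested). Pdgfra and Dcn had both rIL17 libraries above both PBS libraries and an unadjusted p below 0.05 (beside 11.4% of all genes tested, higher), while Col1a1 and Pdgfrb had both below; their part in the lysosomal values was not tested. GC content of the transcripts set libraries of both groups apart. The deviation of a library from the mean of the other 3 had a Pearson correlation with GC content, across 12507 genes, of 0.52 in PBS replicate 2, -0.47 in rIL17 replicate 1, -0.27 in rIL17 replicate 2 and -0.004 in PBS replicate 1. In RNA from whole cultures, fewer cells of a type and less RNA per cell cannot be told apart.

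Most of the 30 other lysosomal genes differed little between PBS and rIL17. The median size of the difference was 0.08 on the log2(normalized count + 1) scale, beside 0.12 for all genes tested. Of the 30, 0 passed the test across all genes (limma, Benjamini-Hochberg adjusted p below 0.05), beside 0.807% of all 12515 genes tested. That share of 30 genes is 0.242, so the count of 0 is near the background and is not a result about these genes. The smallest adjusted p among them was 0.163, for Lamp2. Their median difference was -0.04, beside -0.003 for all genes tested, with 12 values above 0 and 18 below. An unadjusted p below 0.05 was seen for 4 genes with lower values in rIL17 (background 5.19%) and 1 with a higher value (background 11.4%). In 27 of the 30 the 95% confidence interval of the difference lay within 0.5 in either direction, a 1.41-fold change, as for 61.7% of all genes tested, and in 14 it lay within 0.25, as for 18.5%. The exceptions at 0.5 were Gla, Lamp2 and Neu1. These intervals hold for each gene on its own. Their width depends on level, and most of the 30 lay above the median level per kb of the genes tested. The largest standard error (SE) was 0.19 among the 30, beside 1.63 among all genes tested. The shares within 0.5 and 0.25 are therefore not a result about lysosomal genes. The counts depended on the PBS libraries: without PBS replicate 1, 7 of the 30 passed (5 lower and 2 higher), where 21.8% of all genes did, and without PBS replicate 2 only Lamp2 passed, where 5.48% did. With 1 PBS library left, that library is assumed to vary like the rIL17 libraries.

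**Figure D1:**
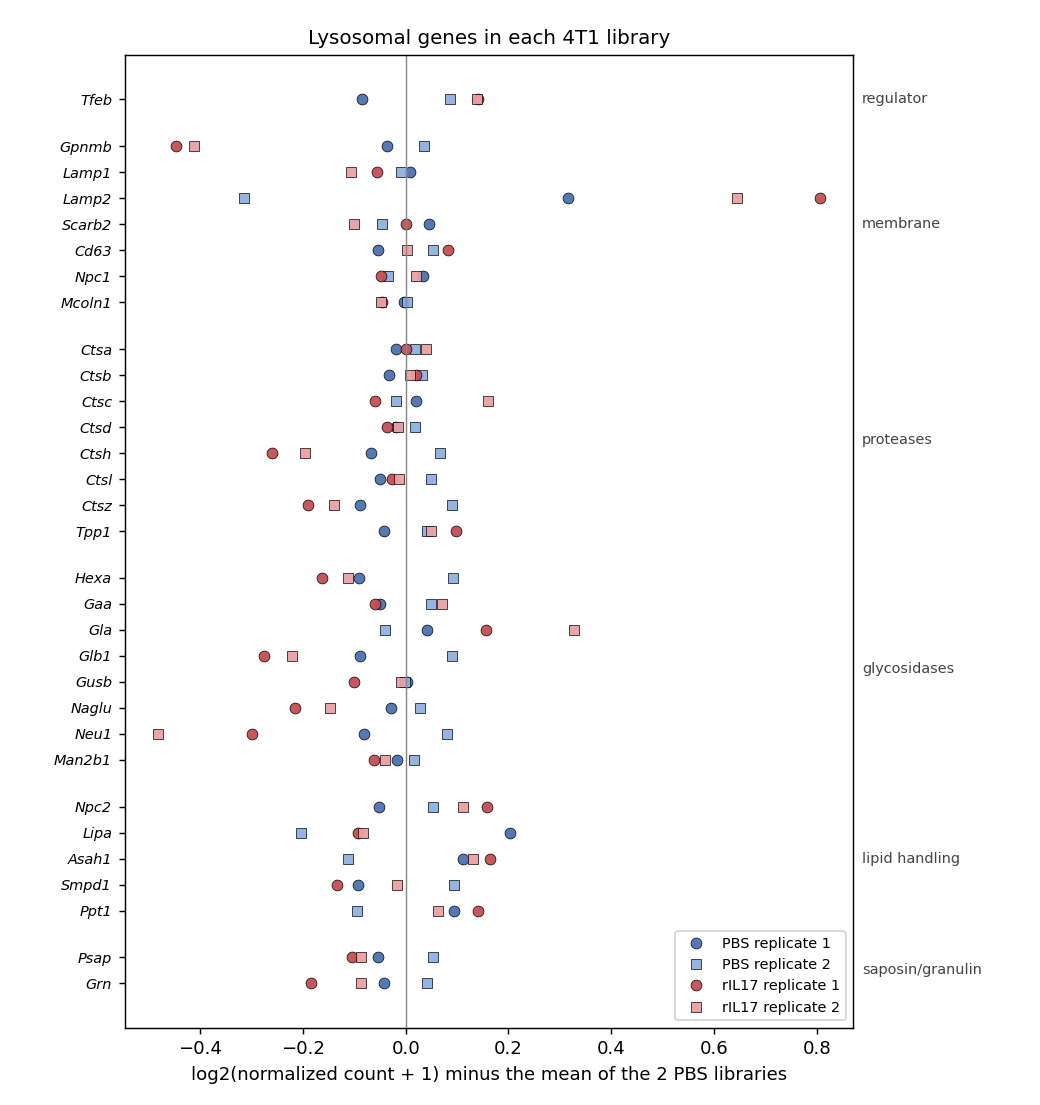
Each row is 1 lysosomal gene and each point 1 library, as log2(normalized count + 1) minus the mean of both PBS libraries, with genes grouped by role. Both rIL17 points of Gpnmb lie well to the left of its PBS points, 28 of the 30 other genes have a group difference smaller than 0.25 (as do 74.3% of all genes tested), and Lamp2 shows the widest gap between the PBS libraries (-0.63).

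The summed level of the 30 other genes was 109921 and 114652 normalized counts with PBS against 110982 and 111256 with rIL17. Both rIL17 sums lay between the PBS sums, with a ratio of 0.990. The 30 genes took 0.616% to 0.658% of each library. By role, the sums of 8 proteases (ratio 0.979) and 8 glycosidases (0.949) had overlapping groups. Those of 6 membrane genes without Gpnmb (1.05), of Psap with Grn (0.926) and of 5 genes of lipid handling (1.08) did not overlap. The sum of all 30 is carried by its most abundant genes, Ctsl, Ctsb and Psap. The membrane sum had a mean of 19201 with PBS and 20218 with rIL17, and Lamp2 within it 1972 and 3189. Of these 6 membrane genes, 2 had a log2 difference above 0 and 4 below.

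Gpnmb (ENSMUSG00000029816, mm10 chromosome 6, 49036546 to 49070929, plus strand) had 3620.4 and 3803 normalized counts with PBS against 2723 and 2790.1 with rIL17. Neither rIL17 library reached the lower PBS library, and the gaps within each group were small beside the gap between them. The mean went from 3711 ± 129 to 2757 ± 47.3 (SD, n = 2 per group), a ratio of 0.743 and a log2 difference of -0.43. Because the gene list was built on this decrease, the values are a description and no test is given for them. Across the 12515 genes, 377 (3.01%) had a log2 difference at least as low. Against the median of the 30 other lysosomal genes in the same library, Gpnmb stood 1.16 and 1.33 higher in PBS and 0.85 and 0.86 higher in rIL17 on the log2 scale. Its transcript has a GC content of 49.6%, near the median of 50.1% for all genes tested. The log2 difference was -0.41 after the GC correction and -0.39 without PBS replicate 2.

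Among the other membrane genes, Lamp2 was the exception to small differences. LAMP2 is a major glycoprotein of the lysosomal membrane, with 1 isoform serving chaperone-mediated autophagy. Lamp2 (chromosome X, 38401357 to 38456454, minus strand) had 2396 and 1548 normalized counts with PBS against 3367 and 3011 with rIL17. Both rIL17 libraries were higher than both PBS libraries, but the PBS libraries themselves differed by 0.63 on the log2 scale, with replicate 2 the lower. The log2 difference was 0.72 (SE 0.19, 95% confidence interval 0.26 to 1.19, adjusted p = 0.163). It was 0.41 without PBS replicate 2 (adjusted p = 0.00176) and 1.04 without PBS replicate 1 (adjusted p = 6.73e-10). The Lamp2 transcript had the lowest GC content of the 31 genes, 38.7%, and after the GC correction its log2 difference was 0.04 (adjusted p = 0.707).

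Lamp1, encoding the other abundant membrane glycoprotein, had 7046 and 6957 normalized counts with PBS against 6737 and 6502 with rIL17. The groups did not overlap, but the difference was small, a log2 value of -0.08 (95% confidence interval -0.22 to 0.05, adjusted p = 0.511). Cd63, a tetraspanin gene of late endosomes and lysosomes, had 7772 and 8366 with PBS against 8539.7 and 8083 with rIL17, and the groups overlapped. Scarb2, encoding LIMP-2, the receptor that carries glucocerebrosidase to the lysosome, had a log2 difference of -0.05. Npc1, whose product exports cholesterol from the lysosome, had -0.01 and overlapping groups. Mcoln1 encodes the calcium channel TRPML1. It had 686 and 689 normalized counts with PBS against 666 and 665 with rIL17, so the groups did not overlap while the log2 difference was -0.05 (95% confidence interval -0.24 to 0.15, adjusted p = 0.808). Cd63 has an expressed pseudogene in the table, Cd63-ps, with which it can share reads.

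The 8 proteases had a median log2 difference of -0.002 (from -0.23 to 0.07), and 0 passed (beside 0.807% of all genes tested). Ctsl, a cysteine protease gene and the most abundant of the list, had 27801 and 29768 normalized counts with PBS against 28247 and 28527 with rIL17 (log2 difference -0.02, 95% confidence interval -0.16 to 0.13). Ctsb, another abundant cysteine protease gene, had 10882 and 11380 with PBS against 11291 and 11190 with rIL17 (0.01, -0.12 to 0.15). The aspartic protease gene Ctsd had 2528 and 2595 with PBS against 2499 and 2535 with rIL17 (-0.03, -0.17 to 0.12). For these major cathepsins the groups overlapped. The Ctsl transcript is low in GC (44.3%), and after the GC correction its value was -0.18 (adjusted p = 0.348), beyond the interval given above.

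Ctsh, an aminopeptidase of the same family, was the protease gene with the lowest value. It had 1818 and 1996 normalized counts with PBS against 1590.3 and 1662 with rIL17, with a log2 difference of -0.23 (SE 0.08, unadjusted p = 0.0220, adjusted p = 0.223). Its groups did not overlap. The value was -0.16 without PBS replicate 2, -0.30 without PBS replicate 1 and -0.18 after the GC correction (limma, adjusted p = 0.165). Ctsz, a carboxypeptidase gene, had 5542 and 6274 with PBS against 5166 and 5355 with rIL17 (log2 difference -0.16, adjusted p = 0.339). Its value was -0.25 without PBS replicate 1, -0.08 without PBS replicate 2 and -0.10 after the GC correction. The other proteases stayed close to 0. Ctsa, encoding the protective protein that stabilizes neuraminidase and beta-galactosidase, had a log2 difference of 0.02, and Tpp1, a tripeptidyl peptidase gene, had 0.07. Ctsc, encoding the dipeptidyl peptidase that activates granule serine proteases, had 372 and 362 normalized counts with PBS against 352 and 410.2 with rIL17 (0.05). Its transcript is low in GC (41.1%), and the GC correction moved it to -0.38 (adjusted p = 0.265).

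**Figure D2:**
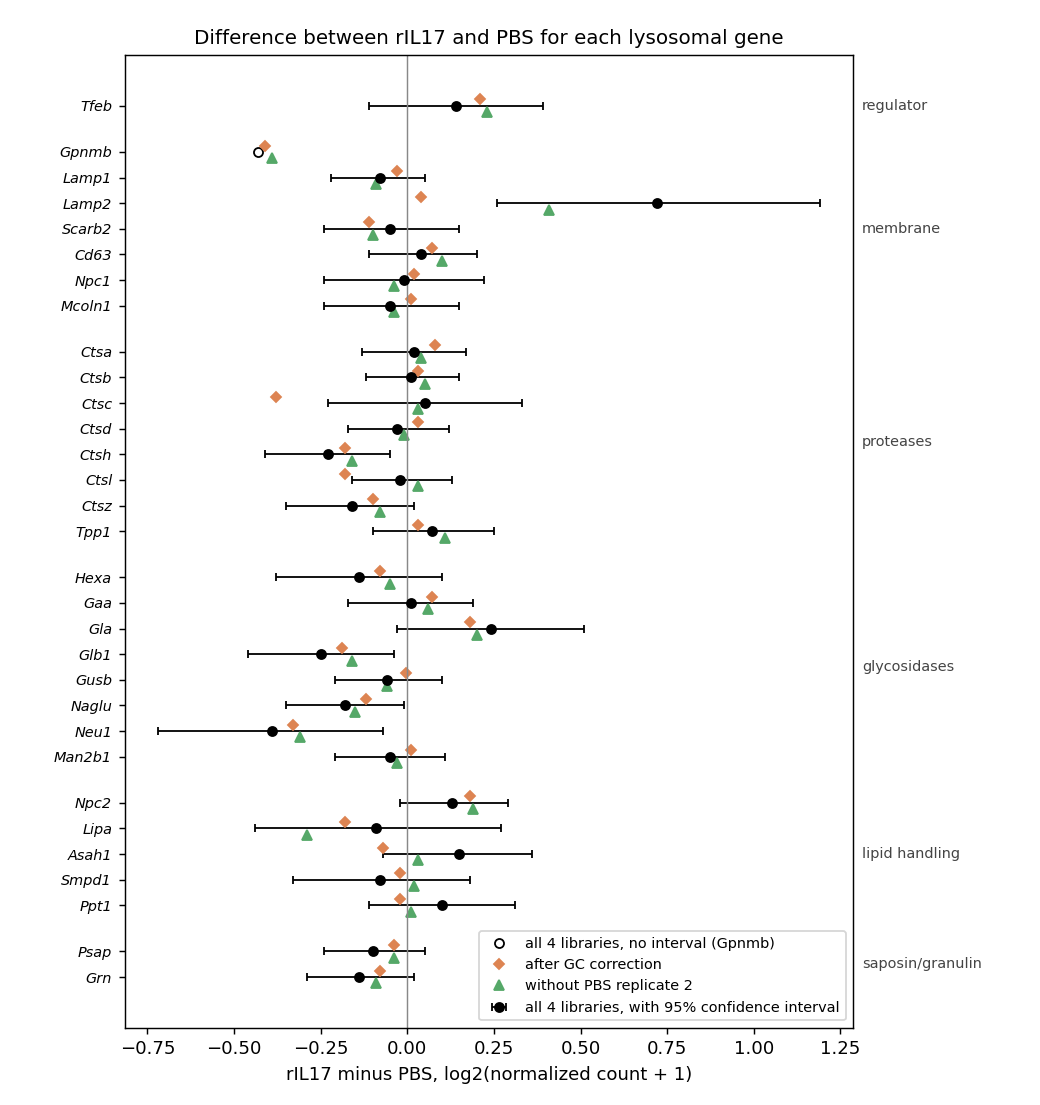
Black points give the log2 difference (rIL17 minus PBS) of each lysosomal gene with its 95% confidence interval (Gpnmb as an open point without one), diamonds the value after the GC correction and triangles the value without PBS replicate 2. The interval of Lamp2 is the widest (0.26 to 1.19), and the diamonds of Lamp2 (0.04), Ctsc (-0.38) and Ctsl (-0.18) lie outside their genes' intervals.

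Of 8 glycosidase genes, 6 had both rIL17 values under both PBS values, where 25.4% of all genes tested did, and the median log2 difference was -0.10. The same pattern was seen in 12 of all 30 genes besides Gpnmb, and the opposite one in 6 (background 25.8%). None of the 8 passed (beside 0.807% of all genes tested), and the difference between roles was not tested. After the GC correction the median was -0.04, and without PBS replicate 2 it was -0.05.

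Neu1 encodes the sialidase that trims sialic acid from glycoproteins and glycolipids and is held in a complex with the products of Ctsa and Glb1. It had 234 and 262 normalized counts with PBS against 201 and 177 with rIL17. Both rIL17 libraries were lower than both PBS libraries, with a log2 difference of -0.39 (SE 0.14, 95% confidence interval -0.72 to -0.07, adjusted p = 0.235). Without PBS replicate 1 the value was -0.47 and passed (adjusted p = 0.0456), and without PBS replicate 2 it was -0.31 (adjusted p = 0.402). Glb1, encoding beta-galactosidase of the same complex, had 1053 and 1192 with PBS against 926 and 961 with rIL17 (log2 difference -0.25, SE 0.09, adjusted p = 0.246). The Glb1 value was -0.16 without PBS replicate 2, -0.34 without PBS replicate 1 and -0.19 after the GC correction (limma, adjusted p = 0.194). Ctsa, the complex's other component, had overlapping groups, with 2622 and 2688 with PBS against 2657 and 2728 with rIL17.

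Naglu, which encodes an enzyme of heparan sulfate breakdown, had 1353 and 1408 normalized counts with PBS against 1188 and 1247 with rIL17 (log2 difference -0.18, SE 0.07, adjusted p = 0.282). Hexa, the alpha subunit gene of hexosaminidase A, had 562 and 638 with PBS against 535 and 554 with rIL17 (-0.14, adjusted p = 0.525). Gusb, encoding beta-glucuronidase, had 2443 and 2436 with PBS against 2275 and 2424 with rIL17 (-0.06). Man2b1, encoding lysosomal alpha-mannosidase, had -0.05 and Gaa, which encodes the enzyme that digests glycogen, 0.01. Gla, encoding alpha-galactosidase A, went the other way, with 309 and 292 with PBS against 335 and 377 with rIL17 (0.24, SE 0.11, adjusted p = 0.350). Gla was thus the only glycosidase gene with both rIL17 libraries above both PBS libraries.

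The 5 genes of lipid handling had a median log2 difference of 0.10, and of -0.02 after the GC correction. Npc2 encodes the soluble protein that hands cholesterol to NPC1. It had 5169.6 and 5559.7 normalized counts with PBS against 5981 and 5789.8 with rIL17, without overlap (log2 difference 0.13, SE 0.06, adjusted p = 0.351). Asah1, encoding acid ceramidase, had 2318 and 1984 with PBS against 2402 and 2349 with rIL17 (0.15, adjusted p = 0.450). Without PBS replicate 1 it passed at 0.26 (adjusted p = 0.0107), without PBS replicate 2 it was 0.03 (adjusted p = 0.900), and after the GC correction the value was -0.07. Ppt1, which encodes a thioesterase that removes palmitate from proteins, had a log2 difference of 0.10. Smpd1, encoding acid sphingomyelinase, had -0.08. Lipa, encoding lysosomal acid lipase, had 527 and 397 with PBS against 429 and 432 with rIL17 (-0.09). Its rIL17 libraries lay between the PBS libraries, and the sign turned without PBS replicate 1 (0.12).

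Psap encodes the precursor of the saposins, which help hydrolases reach their lipid substrates. It had 10970 and 11803 normalized counts with PBS against 10588 and 10716 with rIL17, a log2 difference of -0.10 (SE 0.06, adjusted p = 0.480). Grn, encoding progranulin, which is secreted and also processed in the lysosome, had 6351 and 6728 with PBS against 5752 and 6151 with rIL17 (-0.14, SE 0.07, adjusted p = 0.356). In both genes the groups did not overlap, and Grn passed without PBS replicate 1 (-0.18, adjusted p = 0.0476). Without PBS replicate 2 Grn had -0.09 (adjusted p = 0.563), and after the GC correction -0.08.

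Tfeb, the gene of the transcription factor itself, had 357 and 402 normalized counts with PBS against 418 and 417 with rIL17. Both rIL17 libraries lay above both PBS libraries, with a log2 difference of 0.14 (SE 0.11, 95% confidence interval -0.11 to 0.39, adjusted p = 0.542). At 63.2% its transcript had the highest GC content of the 31, and the value was 0.21 after the GC correction. RNA level does not report the location or activity of the protein.

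Per length, the 31 genes spanned a wide range, from 4405 normalized counts per kb of annotated exon for Ctsl to 37.7 for Npc1. Psap (4016), Ctsz (3875), Lamp1 (2546) and Cd63 (2224) followed Ctsl, all at or above the 97.1 percentile of the genes tested. Gpnmb, at 496 per kb, lay at the 83.8 percentile, beside Gusb (527) and Naglu (489). At the low end Neu1 (58.5), Ctsc (64.4), Lipa (65.8) and Tfeb (70.3) stood next to each other. Annotated exon length includes exons that 4T1 cells may not use, so the order of close neighbours is uncertain.

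**Figure D3:**
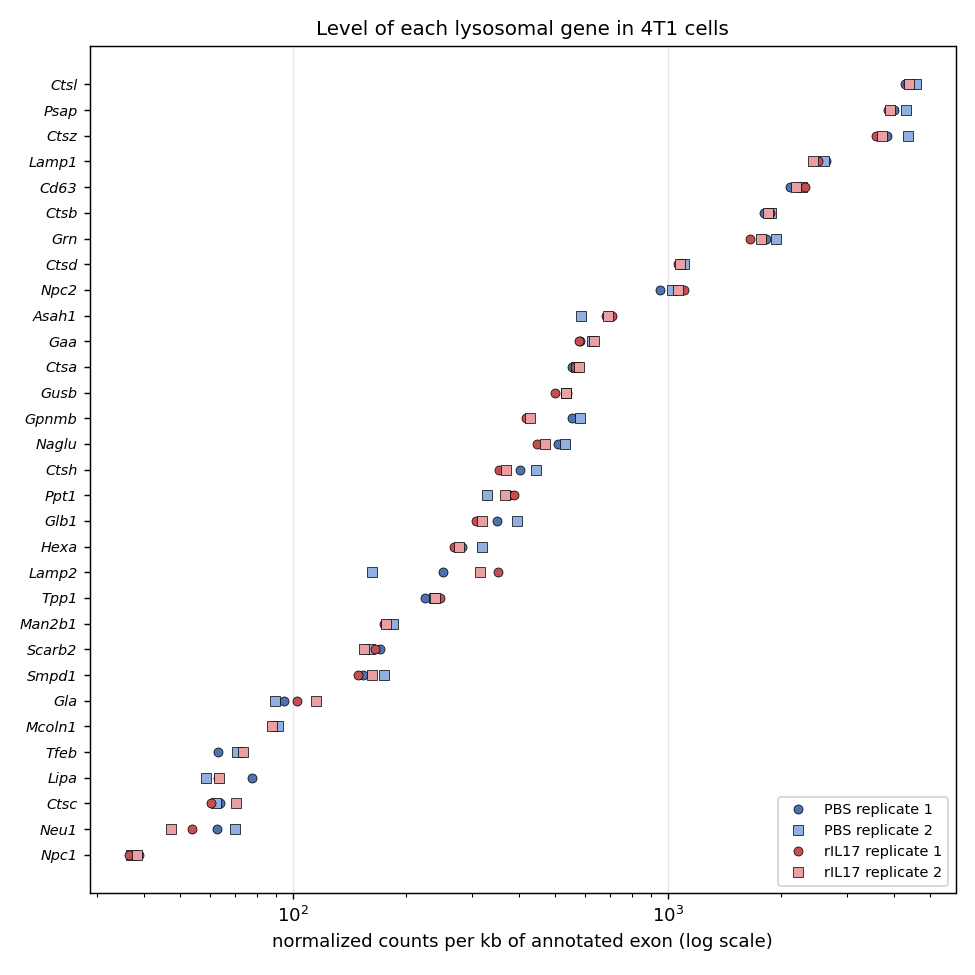
Level of each lysosomal gene in each of the 4 libraries, in normalized counts per kb of annotated exon on a log scale, ordered by the mean. The points of a gene lie close together beside the span between genes, from 37.7 (Npc1) to 4405 (Ctsl).

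The differences among the lysosomal genes moved with transcript GC content, as did those of all genes. Across the 31 genes, the log2 difference between rIL17 and PBS had a Pearson correlation of -0.49 (Spearman -0.45) with GC content, and -0.31 without Lamp2. The difference between PBS replicates 2 and 1 had 0.69 with GC content. Across all 12507 tested genes with a GC value these were -0.45 and 0.46. Without PBS replicate 2, the group difference had a correlation with GC content of -0.23 across the 31 genes and -0.26 across all genes. After the GC correction the correlation was 0.21 across the 31 genes and -0.003 across all genes. These are descriptions across genes that share the same 4 libraries, and genes are not independent replicates. The 6 lysosomal genes below 46% GC (Lamp2, Ctsc, Ctsl, Lipa, Asah1 and Ppt1) had a median log2 difference of 0.08, with PBS replicate 2 at -0.21 relative to replicate 1. The 3514 tested genes below 46% had 0.21 and -0.24. The 25 lysosomal genes at or above 46% had a median of -0.05, beside -0.04 for 8993 tested genes. After the GC correction the medians below 46% were -0.13 (lysosomal) and -0.06 (all tested), and at or above it -0.004 and -0.01. The correction thus moved the median of the low-GC lysosomal genes past 0. Ctsc, Asah1 and Ppt1 changed sign, Lamp2 stayed above 0, and Ctsl and Lipa were below 0 before and after it. Both rIL17 libraries deviated from the mean of the other libraries in the same direction along GC content. Each deviation is taken against the other libraries, so these deviations are not independent of that of PBS replicate 2. The GC trend and the treatment cannot be told apart.

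**Figure D4:**
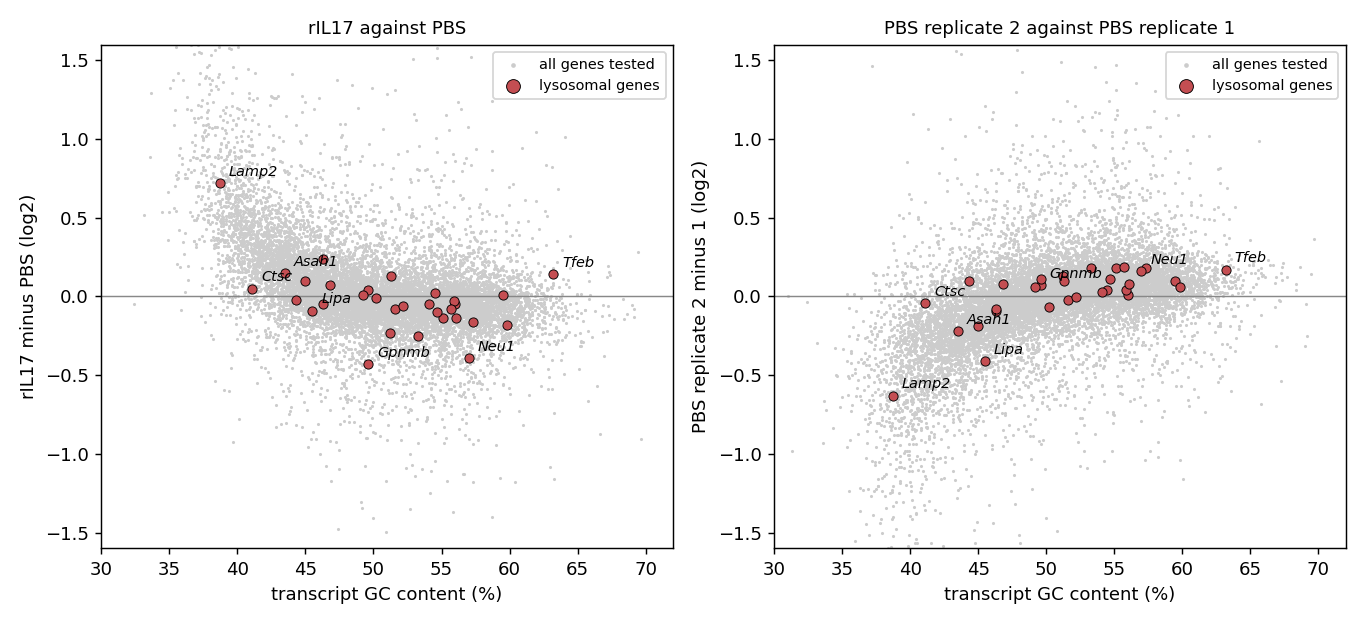
Log2 difference of rIL17 minus PBS (left) and of PBS replicate 2 minus PBS replicate 1 (right) against transcript GC content in percent, with lysosomal genes in red over all genes tested in grey. Lamp2 sits at the low-GC end in both panels, at 0.72 and -0.63, and 109 and 100 genes lie outside the axes.

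Genes that work with these 31 were taken in 7 further lists, of which 6 had a median within 0.05 of 0. Of their 120 tested genes 0 passed in limma, where 0.807% of all genes did, and an unadjusted p below 0.05 was seen for 10 higher (background 11.4%) and 9 lower (5.19%). Of the 120, 3 passed without PBS replicate 2 (Atp6ap2, Cd164 and Sqstm1; background 5.48%) and 20 without PBS replicate 1 (background 21.8%). Among 29 further hydrolase genes the median log2 difference was -0.02, with 14 values above 0 and 15 below. The lowest p-values were those of Arsa, encoding arylsulfatase A (-0.23, adjusted p = 0.167), Arsb, encoding arylsulfatase B (-0.24), and Ids, encoding iduronate 2-sulfatase (0.39, and -0.02 after the GC correction). Among 20 V-ATPase genes the median was -0.02 (8 above 0, 12 below). Atp6ap2, an accessory subunit gene, had 0.41, and -0.09 after the GC correction, Atp6v1g1 had 0.25 and Atp6v1e1 -0.16. Among 19 further membrane genes the median was -0.02. Tmem192 had -0.33 (adjusted p = 0.170), the endolysosomal cation channel gene Tpcn1 -0.23, and the sialomucin gene Cd164 0.76, with 4578 and 2719 normalized counts with PBS against 6272 and 5704 with rIL17. Cd164 had 0.39 after the GC correction, 0.39 without PBS replicate 2 (adjusted p = 0.00118) and 1.14 without PBS replicate 1 (adjusted p = 2.54e-11).

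For MiT/TFE factors and the mTORC1 machinery that controls them at the lysosome, 17 genes had a median log2 difference of -0.02. Mitf, the relative of Tfeb for which Gpnmb is a known target, had 219.8 and 203 normalized counts with PBS against 278 and 236 with rIL17 (log2 difference 0.28, adjusted p = 0.366, and 0.05 after the GC correction). Fnip1, encoding a partner of folliculin, had 0.39, and -0.26 after the GC correction, and Rheb, encoding the GTPase that activates mTORC1, had 0.26. For mannose 6-phosphate tagging and for protein sorting to the lysosome, 10 genes had a median of -0.04. The sorting receptor gene Sort1 had the lowest value (54.9 and 36.8 in PBS, 24.1 and 26.1 in rIL17, log2 difference -0.82, adjusted p = 0.264). Gga2, an adaptor gene, had -0.16 and Igf2r, the large mannose 6-phosphate receptor gene, -0.08. The 3 tested genes of cystatins, inhibitors of cysteine cathepsins, were Cst3 (-0.27, adjusted p = 0.267), Cst6 (-0.43) and Cstb (-0.09). Of 22 autophagy genes, 16 had values above 0 (beside 6174 of all 12515 genes tested), with a median of 0.05. That median was -0.001 with upper-quartile scaling and 0.02 with total-count scaling. The summed level of the 22 was 39770 and 40098 with PBS against 38510 and 37545 with rIL17. Sqstm1, the most abundant of the 22, fell by more than this sum did. Sqstm1, encoding the autophagy receptor p62, had 15895 and 16906 with PBS against 13732 and 13470 with rIL17 (-0.27, SE 0.06, adjusted p = 0.114), Map1lc3a had -0.41, and Rb1cc1, encoding FIP200, had 0.60, and -0.03 after the GC correction.

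The core motif CACGTG was searched on both strands in windows of 300 bases around RefSeq start sites (250 before, 50 after; GRCm38.p6), which were found for 27 of the 31 genes. For 23 of the 27, the 30 bases after a start site lie in a GENCODE M21 transcript of the gene. For Gpnmb, Lamp2, Man2b1 and Ppt1 they do not, and the RefSeq start lies 1 to 28 bases from the nearest GENCODE start. It was present for 9 of the 27 (33.3%): Lamp1, Mcoln1, Ctsa, Ctsd, Ctsl, Gaa, Gla, Glb1 and Naglu. It was present in 7.15% of all 32851 windows, and for 11.9% of 9176 tested genes with a window. The palindromic CLEAR element bound by TFEB, which extends the core by 2 bases on each side, matched 0 of the 27 and 0.326% of all windows. The sequence TCATGTG, a form of the MITF-bound M-box, matched 6 of the 27 (Scarb2, Ctsa, Tpp1, Gla, Ppt1 and Grn) and 3.77% of all windows. Counted by gene, the exact CLEAR sequence was present for 0.861% of tested genes with a window and TCATGTG for 2.62%. The 9 genes with CACGTG had a median log2 difference of -0.03 (from -0.25 to 0.24), and the 18 without it -0.05. The 18 include Gpnmb, on whose decrease the list was built, so these medians are a description only. Gpnmb, Neu1 and Tfeb had none of the 3 sequences in their windows. The same held for Lamp2, Cd63, Ctsc, Ctsz, Hexa, Gusb, Man2b1, Npc2, Lipa, Smpd1 and Psap, so this is a common trait of the list. A match describes the letters in a window and is not evidence of binding.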

How the data were processed

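RNA of 4 libraries of 4T1 cells (2 PBS, 2 rIL17, grouped by their titles) was sequenced after a strand-specific library preparation, per the labels' protocols. CASAVA, HISAT2 2.0.5, featureCounts 1.5.0-p3 and the build mm10 were used, per the submitters' processing notes. The sources used here name no annotation release, strandedness of counting or scaling tool. The deposited values are a normalized signal: in each library 100.0% were whole multiples, within 0.001, of 1 step (0.9811 to 1.0053), so they were handled as read counts that the authors scaled by a factor for each library (normalized counts). Depth was 17511450 to 17970104 reads per library.

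Genes were tested with limma 3.58.1 (R 4.3.3, mean-variance trend) on log2(normalized count + 1), treatment as the only term, Benjamini-Hochberg adjustment over 12515 genes and a threshold of 0.05. This scale understates changes of low genes. Of the genes tested, 78 were called higher and 23 lower in rIL17. The filter was the stricter of those used earlier on these data; a looser one is an alternative. The 31 genes, the further lists, the motifs and the filter were chosen with earlier results of these data known. All 31 are named, and from each further list the 3 genes with the smallest p. Symbols were matched for 21819 of 21840 rows. Coordinates, exon lengths and GC content (longest coding transcript, 99.9% of tested genes) are those of GENCODE M21, promoter sequences those of RefSeq. The GC correction removed from each library a loess fit of its log2 values on GC content. The fit was tested on simulated data. Exons of Lamp1, Npc1, Ctsa, Ctsb, Ctsz, Ppt1 and Grn overlap those of genes on the opposite strand in the table, and those of Glb1 overlap Tmppe on the same strand, so their counts may be shared.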

Additional observations from a re-analysis of the deposited data

How the results depend on the processing

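Of the 30 lysosomal genes besides Gpnmb, 0 passed also with both looser filters, a pseudocount of 0.1, upper-quartile or total-count scaling, limma-voom and the GC correction with or without the replicate block; over all genes the looser filters called 0 genes in all (limma; 2642 and 2739 at an unadjusted p below 0.05), beside 101. With the replicate block alone 1 passed (Lamp2), and with each library left out 0 to 7. Of the genes in the further lists, 8 passed with the replicate block, 1 (Cd164) with the block and the GC correction, and 0 to 20 with each library left out. All genes called numbered 1032 with the block, 419 with block and GC correction, 298 with the GC correction (176 higher and 122 lower, beside 78 and 23), 191 with limma-voom and 161 with upper-quartile scaling, and 1, 4, 686 and 2734 without rIL17 replicate 1, rIL17 replicate 2, PBS replicate 2 and PBS replicate 1. The labels do not say what the replicate numbers mark, and they were not used as pairs: same-numbered libraries deviated with a correlation of 0.157, and 2 pairs cannot settle whether they are paired. The median of the 30 genes was -0.09 with upper-quartile scaling and between -0.07 and -0.01 in the other settings. Gpnmb ran from -0.48 to -0.39 over 13 settings. Signs turned as follows. With upper-quartile scaling Cd63 had -0.01, Ctsa -0.03, Ctsb -0.04 and Gaa -0.04; with total-count scaling and with limma-voom alike Ctsa had -0.01, Ctsb -0.02 and Gaa -0.02. With the GC correction, with or without the replicate block, Npc1 had 0.02, Mcoln1 0.01, Ctsc -0.38, Ctsd 0.03, Man2b1 0.01, Asah1 -0.07, Ppt1 -0.02, Atp6ap2 -0.09, Ids -0.02, Fnip1 -0.26 and Rb1cc1 -0.03. With each library left out, Scarb2 ran from -0.10 to 0.002, Cd63 from -0.01 to 0.10, Npc1 from -0.05 to 0.02, Ctsb from -0.02 to 0.05, Ctsc from -0.06 to 0.16, Ctsl from -0.07 to 0.03, Gaa from -0.06 to 0.07, Lipa from -0.29 to 0.12 and Smpd1 from -0.17 to 0.02. The cause was not tested. Count tests on recovered reads (planned as 2 alternatives) were not run. With 2 libraries per group, small changes of low genes such as Neu1 are not resolved.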
